A study of Danio rerio with 24 samples.

Results

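The genes described here are klf9 and 9 related Krüppel-like factor (Klf) genes of the zebrafish, klf13, klf11a, klf11b, klf15, klf6a, klf2a, klf2b, klf3 and klf7b. They were chosen by name, and all 10 were found among the 31242 genes of the count table and passed the filter on low counts. The larvae were either klf9-/-, from a line made in the AB strain, or wildtype controls that shared grandparents with the mutants. The mutant allele lacks 2 bp of exon sequence near the start of klf9, which shifts the reading frame and ends the protein early. All larvae were kept on 14 h of light and 10 h of dark and collected at 5 days post-fertilization. Collection was at 3 Zeitgeber times (hours from lights on), ZT-3 in the dark, ZT0 at lights on and ZT+2.5 in the light, with 4 pools of 6 whole larvae for each genotype and time point.

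Klf proteins bind GC-rich and CACCC sequences in promoters through 3 zinc fingers at their C-terminal end, and they share these fingers with the Sp proteins. Members with related N-terminal parts act alike: Klf9, Klf13 and Klf11 can recruit the Sin3 corepressor, Klf3 can recruit CtBP, and Klf2, Klf6 and Klf7 carry activation domains. In vertebrates klf9 is induced by glucocorticoid and thyroid hormone receptors, and its mRNA follows the daily rhythm of glucocorticoids. The question here is how these genes varied with genotype and time of day, and whether any relative was more abundant where klf9 was reduced.

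Libraries held 41444609 to 64452247 expected counts, with a median of 46426734 in klf9-/- and 54621233 in wildtype. Levels are given as CPM, the counts scaled to a common library size with TMM factors, which are comparable between samples for 1 gene but not between genes, since transcript length was not corrected. Whole larvae were sequenced, so fewer cells of a type and less RNA per cell cannot be told apart. Replicates within groups differed along the first principal component (PC1), which took 21.7% of the variance and was a covariate in every test. It was computed here from all 24 samples. The study's methods attributed a first principal component to a technical effect and also used it as a covariate. Whether it came from the same set of samples is not given in the sources used here. A gene passed the test when its adjusted p did not exceed 0.1, and was called when its log2 fold change also reached 0.5 in either direction. All tests are edgeR's quasi-likelihood tests with Benjamini-Hochberg adjustment over all genes, unless another is named. Intervals are 95% confidence intervals.

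Transcripts of klf9 (ENSDARG00000068194), a transcription factor gene induced by glucocorticoid signaling, were less abundant in the mutants, but remained well above 0 in every pool. At ZT-3, the 4 klf9-/- pools had 17.7, 19.8, 17.4 and 10.6 CPM, against 49.9, 35.7, 65.6 and 47.9 CPM in wildtype. At ZT0 they had 20.8, 18.5, 19.2 and 23.2 CPM, against 74.2, 57.6, 54.4 and 70.7 CPM in wildtype. At ZT+2.5 they had 4.72, 9.98, 13.8 and 18.7 CPM, against 37.7, 15.3, 38.3 and 31.8 CPM in wildtype. The genotypes did not overlap at ZT-3 and ZT0, where klf9-/- pools were all lower for 4.18% and 4.62% of all genes. At ZT+2.5 the second wildtype pool lay below the fourth mutant pool. The lowest count behind any of these values was 211 reads. The count does not tell the frameshifted transcript from the normal one.

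**Figure D1:**
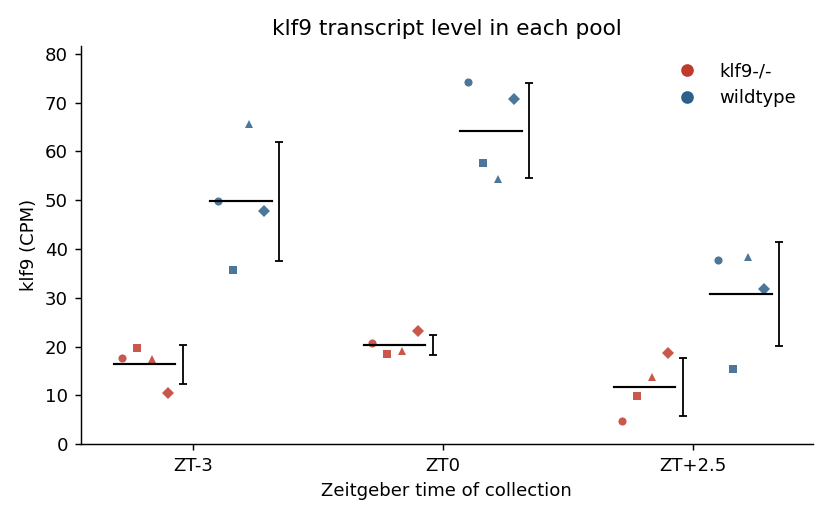
Level of klf9 in CPM (vertical axis, from 0) by Zeitgeber time (horizontal axis) in klf9-/- (red, left of each pair) and wildtype (blue) pools. Each point is 1 pool of 6 larvae, with marker shapes for replicates 1 to 4 (circle, square, triangle, diamond), horizontal lines for means and bars for the SD (n = 4). Mutant pools sit between 4.72 and 23.2 CPM, and wildtype pools between 15.3 and 74.2 CPM.

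Over all time points klf9 fell by 1.51 on the log2 scale (SE 0.16, adjusted p = 4.79e-07), to 35.0% of the wildtype level, with an interval of 28.0% to 43.9%. Within time points, the log2 fold change was -1.64 at ZT-3 (SE 0.20), -1.64 at ZT0 (SE 0.13) and -1.40 at ZT+2.5 (SE 0.37). The test was passed at ZT-3 (adjusted p = 0.00778) and at ZT0 (adjusted p = 0.000576). It was not passed at ZT+2.5 (adjusted p = 0.115), where DESeq2 gave an adjusted p of 0.0129. With 1 pool left out, 1 of 8 fits passed there, the one without wildtype replicate 1 (adjusted p = 0.0582). The adjusted p of these fits reached 0.25. The spread was also wider at ZT+2.5, with a coefficient of variation of 50.1% in klf9-/- and 34.8% in wildtype, against 10.2% in klf9-/- and 15.1% in wildtype at ZT0. The genotype difference did not vary detectably among time points, and the interval of its change between ZT-3 and ZT+2.5 was wide, from -0.57 to 1.08 on the log2 scale.

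Among the 10 genes, klf9 was the only one called at ZT-3, at ZT0 or over the whole data set, where 2.92%, 3.43% and 4.91% of all genes were called. None of the 10 was called at ZT+2.5, where 2.28% of all genes were, although 3 had an unadjusted p under 0.05 and DESeq2 called klf9. By the adjusted p alone, klf15 was higher in the mutants, and klf9, klf11a and klf11b were lower, over all time points. That is 4 of 10 genes, in a comparison in which 36% of all genes passed. At single time points the adjusted p was passed by 3 of the 10 at ZT-3 (8.83% of all genes), 1 at ZT0 (13.6%) and 1 at ZT+2.5 (6.69%). The median log2 difference of the 9 relatives over all time points was 0.01, as it was for all genes tested.

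**Figure D2:**
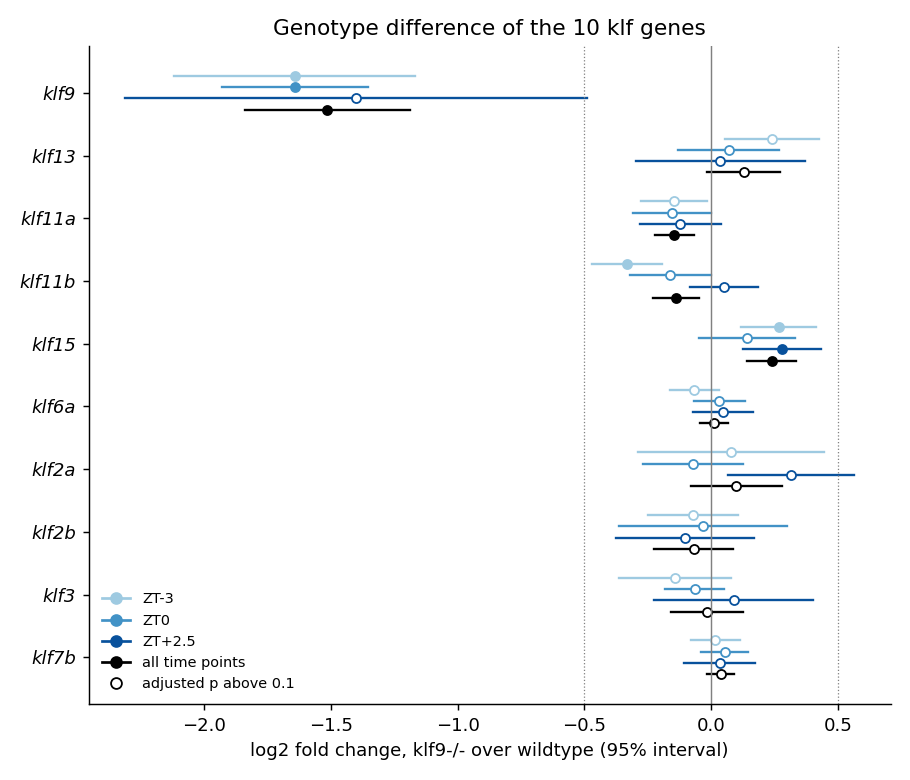
Log2 fold change of klf9-/- over wildtype (horizontal axis) for the 10 klf genes (rows) at ZT-3, ZT0, ZT+2.5 and over all time points, with 95% intervals. Filled points passed an adjusted p of 0.1, open points did not, and dotted lines mark a log2 fold change of 0.5 in either direction. Only klf9, at -1.51 over all time points, lies beyond a dotted line, and among the relatives klf15 lies farthest to the right over all time points at 0.24.

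The relatives that share the Sin3-binding repressor type of klf9 are klf13 and the klf11 pair. klf13 (ENSDARG00000061368), which in mice takes part in heart and lymphocyte development, had 20.7, 21.1, 17.5 and 14.1 CPM in klf9-/- at ZT-3, against 14.8, 15.8, 13.5 and 17.0 CPM in wildtype. The mutant pool was the lower one in 3 of 16 pairs there, and in 6 of 16 at ZT0 and at ZT+2.5. The log2 difference was 0.24 at ZT-3 (SE 0.08, adjusted p = 0.137), 0.07 at ZT0 and 0.04 at ZT+2.5. Over all time points klf13 stood at 109% of wildtype, with an interval of 99.0% to 121% (adjusted p = 0.174). The interval spanned both no difference and a higher level in the mutants. klf13 passed over all time points without klf9-/- replicate 1 of ZT+2.5 (adjusted p = 0.0703) or without wildtype replicate 2 of ZT+2.5 (adjusted p = 0.0677). RSEM had divided ambiguous reads for klf13 in every sample (100% of its values were not whole numbers), so its level is less certain than that of klf9, whose values were all whole.

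klf11a and klf11b are co-orthologs of KLF11, a glucose- and TGF-beta-responsive repressor in mammals. klf11a (ENSDARG00000030844) was at 15.4, 16.3, 15.2 and 15.0 CPM in klf9-/- at ZT-3, against 17.8, 17.7, 17.1 and 16.0 CPM in wildtype, and mutant pools were lower in 15 of 16 pairs. Pairs with the lower mutant numbered 14 of 16 at ZT0 and 12 of 16 at ZT+2.5. No time point passed the test on its own (adjusted p = 0.196, 0.204 and 0.396 in time order). Over all time points klf11a fell by 0.15 on the log2 scale (SE 0.04, adjusted p = 0.0045), to 90.4% of wildtype. The adjusted p stayed between 0.00156 and 0.0128 when any 1 pool was left out.

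klf11b (ENSDARG00000013794) passed the test at ZT-3 alone among the time points, as lower in klf9-/-. At ZT-3 the mutant pools had 11.3, 11.5, 10.0 and 9.32 CPM, against 12.1, 11.8, 13.2 and 15.7 CPM in wildtype, without overlap, as for the 4.18% of all genes given above. At ZT+2.5 they had 9.96, 11.0, 12.8 and 14.1 CPM, against 10.4, 11.1, 12.7 and 13.0 CPM in wildtype, and the groups covered the same range. The log2 difference was -0.33 at ZT-3 (SE 0.06, adjusted p = 0.0169), -0.16 at ZT0 (adjusted p = 0.204) and 0.05 at ZT+2.5 (adjusted p = 0.709). Over all time points klf11b fell by 0.14 (SE 0.04, adjusted p = 0.0191), to 90.8% of wildtype.

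Among the 10 genes, klf11b alone had an unadjusted p under 0.05 for the interaction of genotype and time, against 4.79% of all genes. Its adjusted interaction p was 0.356 with edgeR, so that 0 of the 10 genes passed, against 4 of all genes (0.0173%). DESeq2's likelihood ratio test gave klf11b an adjusted p of 0.0318, 1 of 35 genes it called. klf11b also followed PC1 closely within groups (r = -0.93 over 24 samples, beyond 96.3% of genes by size), and without PC1 as a covariate the difference at ZT-3 was -0.32, against -0.33 with it, with an adjusted p of 0.238. The size of the difference at ZT-3 was thus nearly the same with and without PC1.

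klf15 (ENSDARG00000091127) in mammals regulates amino acid and glucose metabolism and is itself a glucocorticoid target. Over all time points, 5 of the 9 relatives had a positive log2 difference. With all pools in the fit and no replicate block, only klf15 passed the test as higher in the mutants. At ZT-3 the klf9-/- pools had 38.6, 41.5, 36.7 and 32.3 CPM, against 29.7, 26.3, 33.6 and 33.4 CPM in wildtype. At ZT0 they had 42.5, 40.2, 45.7 and 54.5 CPM, against 49.4, 40.9, 39.0 and 43.7 CPM in wildtype. At ZT+2.5 they had 31.4, 44.8, 48.0 and 53.0 CPM, against 33.5, 31.4, 40.7 and 45.4 CPM in wildtype. The genotypes overlapped at every time point, with the mutant lower in 2, 6 and 4 of 16 pairs in time order.

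Over all time points klf15 was at 118% of wildtype, with an interval of 110% to 126% (log2 fold change 0.24, SE 0.05, adjusted p = 0.000398). The difference was 0.27 at ZT-3 (adjusted p = 0.0492), 0.14 at ZT0 (adjusted p = 0.333) and 0.28 at ZT+2.5 (adjusted p = 0.0606), and no interaction was detected with edgeR. The overall result passed with any 1 pool left out (adjusted p at most 0.00118) and without PC1 (adjusted p = 0.0898). The results at ZT-3 and ZT+2.5 did not pass without PC1, where the differences were 0.28 and 0.23 (adjusted p = 0.256 and 0.708), nor with certain pools left out. At ZT-3 these were mutant replicates 2, 3 and 4 and wildtype replicate 4 (adjusted p up to 0.136), and at ZT+2.5 mutant replicates 3 and 4 and wildtype replicates 2, 3 and 4 (adjusted p up to 0.168). klf15 followed PC1 within groups (r = -0.82), and 95.8% of its values held divided reads. Its size was below the fold needed for a call.

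**Figure D3:**
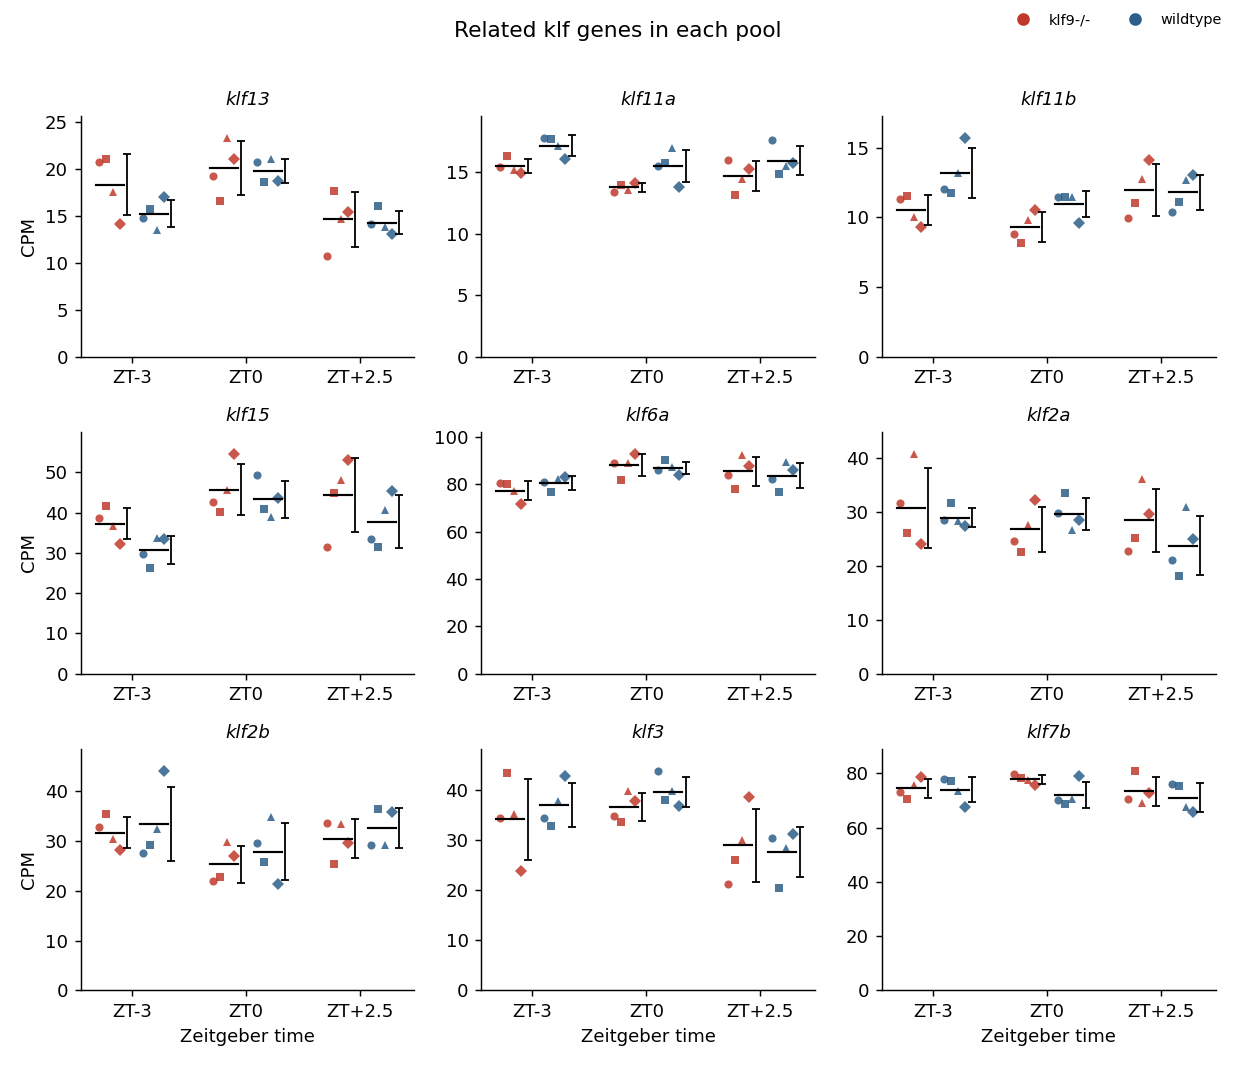
Levels of the 9 relatives of klf9 in CPM (vertical axes, each from 0) by Zeitgeber time in klf9-/- (red, left of each pair) and wildtype (blue) pools. Points are single pools with marker shapes for replicates 1 to 4, lines are means and bars the SD (n = 4). Genotypes are apart in klf11b at ZT-3, where mutant pools reach 11.5 CPM and wildtype pools start at 11.8 CPM, and overlap in every other gene and time point.

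The activating relatives klf6a, klf7b, klf2a and klf2b passed no edgeR genotype test, at any time point or over all, with all pools and no replicate block. klf6a (ENSDARG00000029072), which in zebrafish is needed for regrowth of optic axons, averaged 77.4 ± 4.14 CPM in klf9-/- and 80.7 ± 2.89 CPM in wildtype at ZT-3 (SD, n = 4 each). Over all time points its log2 difference was 0.01, with an interval of -0.04 to 0.07. klf7b (ENSDARG00000043821), a relative of the mammalian neuronal factor KLF7, averaged 77.8 ± 1.73 CPM in klf9-/- and 72.1 ± 4.75 CPM in wildtype at ZT0. Its log2 difference over all time points was 0.04, with an interval of -0.01 to 0.09 (adjusted p = 0.285, and 0.0859 without klf9-/- replicate 1 of ZT+2.5). The intervals of klf6a and klf7b were the narrowest among the 9 relatives.

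klf2a and klf2b are the zebrafish counterparts of KLF2, which responds to blood flow in the endothelium. klf2a (ENSDARG00000042667) had 22.8, 25.1, 36.2 and 29.7 CPM in klf9-/- at ZT+2.5, against 21.1, 18.1, 30.9 and 24.9 CPM in wildtype. The log2 difference there was 0.32 (SE 0.11, adjusted p = 0.16), and the mutant pool was the lower one in 4 of 16 pairs. Each mutant pool exceeded the wildtype pool of the same number, but the number is not shown to be a pairing. With the replicate number as a block, the difference was 0.36 (adjusted p = 0.0329). That fit estimated the block besides genotype and PC1 from 8 samples, and PC1 itself fell from replicate 1 to 4 in both genotypes. klf2a also passed with DESeq2 (adjusted p = 0.0981) and in the fit without wildtype ZT+2.5 replicate 3 (0.41, adjusted p = 0.0859). At ZT-3 and ZT0 the difference was 0.08 and -0.07 (adjusted p = 0.835 and 0.68). klf2b (ENSDARG00000040432) differed by -0.07 over all time points (adjusted p = 0.536), with an interval of 85.6% to 106% of wildtype. The 5 endothelial markers (kdrl, cdh5, tie1, pecam1 and egfl7) summed to 90.5 to 120 CPM in klf9-/- and 95.3 to 113 CPM in wildtype at ZT+2.5, and none of them passed there.

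klf3 (ENSDARG00000015495), a CtBP-recruiting repressor known in mice for roles in fat and red blood cells, passed no genotype test. It averaged 34.2 ± 8.09 CPM in klf9-/- and 37.0 ± 4.44 CPM in wildtype at ZT-3 (SD, n = 4 each), and its interval over all time points was 89.7% to 109% of wildtype. Red blood cell markers were lower in the same mutants, with 3 of 5 called over all time points (hbae1.1, hbbe1.1 and alas2) and summed levels of 313 to 440 CPM in klf9-/- against 490 to 770 CPM in wildtype. Liver (3 of 5) and exocrine pancreas (5 of 5) markers were called higher over all time points. By the same rule 794 of all 23158 genes were called higher and 343 lower, together 4.91%. Within single time points, in time order, 3, 2 and 4 red blood cell markers were called lower. Called higher were 3, 4 and 1 liver markers and 0, 5 and 0 exocrine pancreas markers. DESeq2 called 1, 5 and 3 exocrine pancreas markers. The summed levels of liver and of exocrine pancreas markers overlapped between genotypes at every time point. For exocrine pancreas at ZT0 these were 475 to 2330 CPM in klf9-/- and 577 to 2399 CPM in wildtype. Of 5 markers each, 2 neuronal markers passed the adjusted p as higher, 2 epidermal markers passed as lower, and no muscle marker passed. Among all 23158 genes, 4523 passed as higher and 3816 as lower, which is 36% in either direction. The part of these cell types in the klf differences was not tested.

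Time of day changed klf9 in both genotypes. In klf9-/-, its level at ZT+2.5 was 52.5% of that at ZT0 (log2 fold change -0.93, SE 0.29, adjusted p = 0.0439), with 1 pool overlapping. In wildtype, the level at ZT+2.5 was 48.4% of that at ZT0 (log2 fold change -1.05, SE 0.27, adjusted p = 0.0138), and the pools did not overlap, as for 4.57% of all genes. The klf9 transcript that remained in the mutants thus also declined after lights on. The difference between these changes was 0.12 on the log2 scale, with an interval of -0.71 to 0.95. In klf9-/- this change did not pass without PC1 (adjusted p = 0.173), without replicate 1 of ZT0 (adjusted p = 0.104) or without replicate 1 of ZT+2.5 (adjusted p = 0.153).

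Between ZT-3 and ZT0, klf9 did not change detectably in klf9-/- (0.34, adjusted p = 0.513) or in wildtype (0.20, adjusted p = 0.762). From ZT-3 to ZT+2.5 it differed by -0.59 in klf9-/- (adjusted p = 0.158) and fell by 0.85 in wildtype (adjusted p = 0.0329). The wildtype change did not pass without PC1 (adjusted p = 0.156), without wildtype replicate 3 of ZT-3 (adjusted p = 0.109) or without wildtype replicate 2 of ZT+2.5 (adjusted p = 0.114). In both genotypes the order of mean levels was ZT0, ZT-3, ZT+2.5 from high to low, and the first 2 did not differ beyond their spread.

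klf3 and klf13 showed a fall after lights on as well. In klf9-/-, klf3 had 34.8, 33.7, 39.8 and 37.8 CPM at ZT0 and 21.2, 26.1, 30.0 and 38.5 CPM at ZT+2.5 (log2 fold change -0.42, adjusted p = 0.0246; without PC1 -0.34, adjusted p = 0.326). In wildtype it had 43.8, 37.9, 39.8 and 36.8 CPM at ZT0 and 30.5, 20.4, 28.5 and 31.3 CPM at ZT+2.5, without overlap, as for 4.57% of all genes (log2 fold change -0.50, SE 0.12, adjusted p = 0.00663). This fall was just short of the fold needed for a call, and with RLE scaling or DESeq2 it was just past it. The wildtype fall from ZT-3 to ZT+2.5 was 0.53 on the log2 scale (SE 0.12, adjusted p = 0.00243), the one change of a relative past both thresholds in either genotype. Without PC1 it was 0.42 with an adjusted p of 0.109.

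klf13 had 19.3, 16.6, 23.4 and 21.1 CPM at ZT0 and 10.7, 17.7, 14.7 and 15.4 CPM at ZT+2.5 in klf9-/-. In wildtype it had 20.8, 18.6, 21.1 and 18.8 CPM at ZT0 and 14.1, 16.0, 13.8 and 13.1 CPM at ZT+2.5, without overlap, as for 4.57% of all genes. It fell by 0.49 in klf9-/- (SE 0.12, adjusted p = 0.00922) and by 0.45 in wildtype (SE 0.12, adjusted p = 0.0138).

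klf15 and klf11b moved in opposite directions toward lights on. From ZT-3 to ZT0, klf15 rose by 0.29 in klf9-/- (adjusted p = 0.0235; without PC1 also 0.29, adjusted p = 0.300) and by 0.36 in wildtype (adjusted p = 0.00901). Over the same interval klf11b fell by 0.18 in klf9-/- (adjusted p = 0.0344) and by 0.38 in wildtype (SE 0.05, adjusted p = 7.99e-05). After lights on klf11b rose in klf9-/- by 0.31 (SE 0.05, adjusted p = 0.000459) and differed by 0.12 in wildtype (adjusted p = 0.16). At ZT+2.5 it was 109% of its ZT-3 level in klf9-/- (adjusted p = 0.0954, and 0.111 with DESeq2) and 83.7% in wildtype (adjusted p = 0.00111). The difference of 0.38 between these 2 changes did not pass the test (edgeR adjusted p = 0.205). Without PC1, the klf11b changes from ZT-3 to ZT0 did not pass, at -0.18 in klf9-/- (adjusted p = 0.508) and -0.26 in wildtype (adjusted p = 0.261). Nor did those from ZT-3 to ZT+2.5, at 0.18 in klf9-/- (adjusted p = 0.355) and -0.16 in wildtype (adjusted p = 0.436). The klf9-/- change from ZT-3 to ZT0 did not pass without klf9-/- replicate 4 of ZT-3 (adjusted p = 0.105) or replicate 2 of ZT0 (adjusted p = 0.133). With 1 pool left out, the change from ZT-3 to ZT+2.5 passed in 10 of 24 fits in klf9-/- and in 24 of 24 in wildtype.

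Changes with time were also found for klf6a and klf2a. klf6a was higher at ZT0 than at ZT-3 by 0.19 in klf9-/- (adjusted p = 0.0046), and differed by 0.06 in wildtype (adjusted p = 0.46). klf13, klf3 and klf6a also passed from ZT-3 to ZT+2.5 in klf9-/-, at -0.35, -0.31 and 0.13. Without PC1 these changes were -0.33, -0.24 and 0.15 and did not pass (adjusted p = 0.115, 0.403 and 0.103). With single pools left out, their adjusted p reached 0.154, 0.251 and 0.111. From ZT-3 to ZT+2.5, klf2a differed by -0.16 in klf9-/- (adjusted p = 0.466) and fell by 0.40 in wildtype (adjusted p = 0.0646). The wildtype fall did not pass without PC1, at -0.29 (adjusted p = 0.314), or without wildtype replicates 1 or 2 of ZT-3 or 1, 2 or 4 of ZT+2.5 (adjusted p up to 0.206). Over that interval 3 of 5 endothelial markers passed as lower in klf9-/- and 4 of 5 in wildtype, with medians of -0.25 and -0.30. Of all 23158 genes, 3663 in klf9-/- and 3398 in wildtype passed as lower, and 31.7% and 29.1% passed in either direction. The part of the endothelial markers in the klf2a change was not tested. klf7b passed at no step in either genotype, and klf11a and klf2b passed at none with edgeR and all pools. Between ZT-3 and ZT0 in klf9-/-, DESeq2 gave klf11a -0.17 (adjusted p = 0.0962) and klf2b -0.33 (adjusted p = 0.0878), and both also passed at single steps with certain pools left out.

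**Figure D4:**
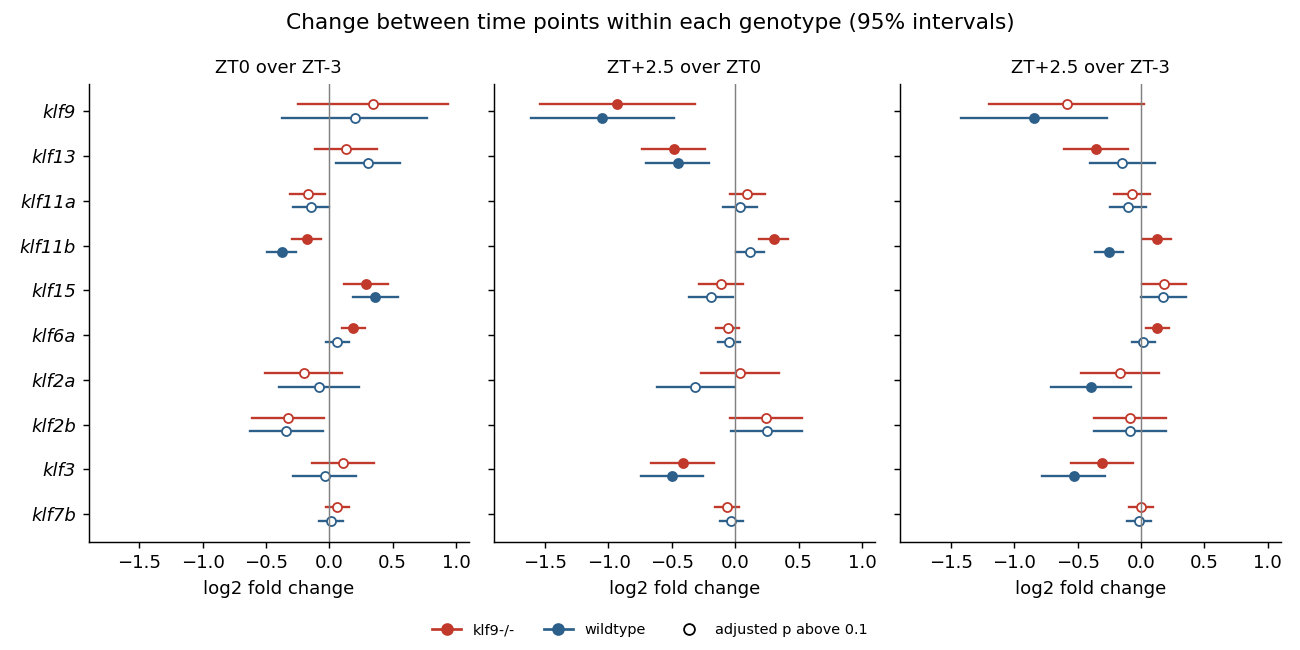
Log2 fold change between time points (horizontal axes) of the 10 klf genes (rows) in klf9-/- (red, upper of each pair) and wildtype (blue), with 95% intervals, for ZT0 over ZT-3, ZT+2.5 over ZT0 and ZT+2.5 over ZT-3. Filled points passed an adjusted p of 0.1. klf9, klf13 and klf3 lie to the left in both genotypes for ZT+2.5 over ZT0, at -0.93, -0.49 and -0.42 in klf9-/- and -1.05, -0.45 and -0.50 in wildtype.

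Counted over the 10 genes, 0 were called from ZT-3 to ZT0 in klf9-/- (3.60% of all genes) and 0 in wildtype (2.15%), with edgeR and with DESeq2, and 5 in each genotype had an unadjusted p under 0.05. By the adjusted p alone these were 3 in klf9-/- (16.6% of all genes) and 2 in wildtype (11.7%). From ZT0 to ZT+2.5, 1 was called in klf9-/- (3.55%) and 1 in wildtype (3.43%), and 4 and 3 passed the adjusted p alone (16.7% and 16.6%). From ZT-3 to ZT+2.5, 0 were called in klf9-/- (7.46%) with either tool, with 5 at an unadjusted p under 0.05, and 2 in wildtype (6.85%), klf9 and klf3. By the adjusted p alone 4 passed in each genotype (31.7% and 29.1%).

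Beyond these 10, the table held 10 other Klf genes and 12 Sp genes, all tested. Of all 23158 genes tested over all time points, 9049 had an unadjusted p under 0.05 and 36% passed the adjusted p, against which the counts of these genes are to be read. Of the other Klf genes none was called over all time points with edgeR or DESeq2, 3 had an unadjusted p under 0.05, and 2 passed the adjusted p alone, klf4 and klf6b, both higher. klf4, known for its role in stem cells and epithelia, was the highest at 0.33 (SE 0.11, adjusted p = 0.0294), and klf1, the erythroid factor, the lowest at -0.14 (adjusted p = 0.324). klf4 was called at ZT+2.5 (0.72, SE 0.20, adjusted p = 0.0883), at 0.94 to 2.58 CPM in klf9-/- and 1.03 to 1.41 CPM in wildtype, which overlapped. Of the Sp genes none was called with either tool, 4 had an unadjusted p under 0.05, and 3 passed the adjusted p alone. sp5l, a Wnt target, was the highest at 0.18 (adjusted p = 0.0179) and sp8a, whose mouse counterpart acts in limb and brain development, the lowest at -0.23 (adjusted p = 0.00492), with sp4 between them at 0.10 (adjusted p = 0.0222). The medians over all time points were 0.05 for the other Klf genes and -0.05 for the Sp genes, against 0.01 for all genes.

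**Figure D5:**
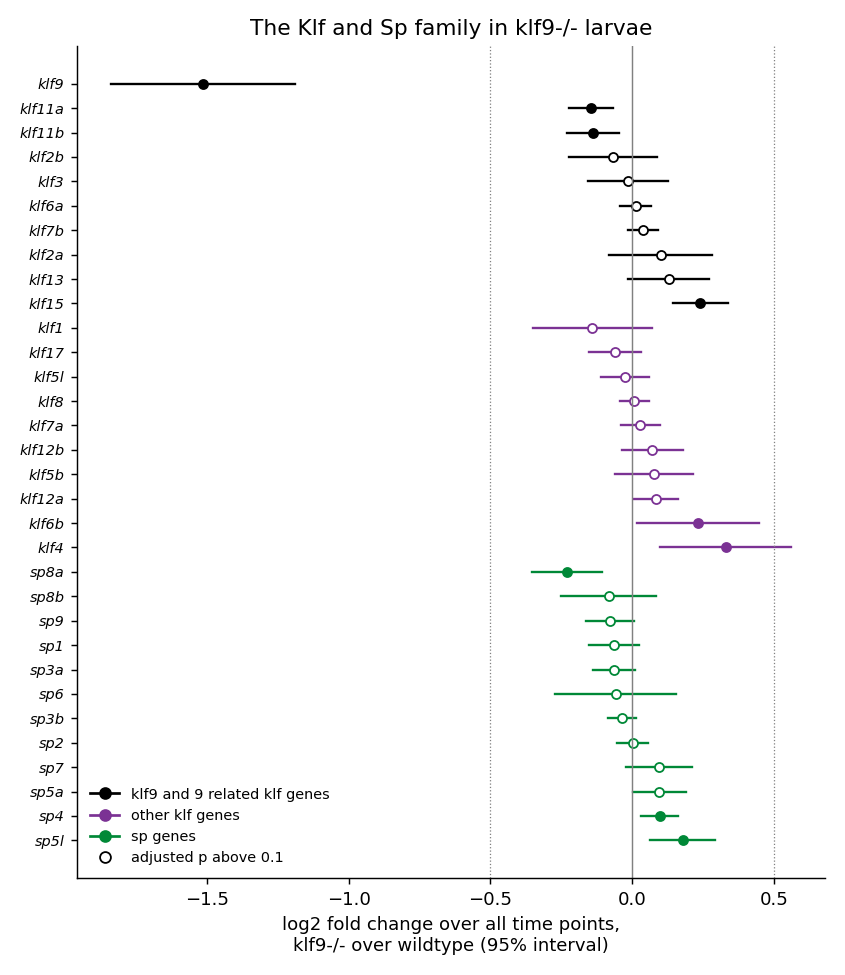
Log2 fold change of klf9-/- over wildtype over all time points (horizontal axis) with 95% intervals for klf9 and its 9 relatives (black), 10 other klf genes (purple) and 12 sp genes (green). Filled points passed an adjusted p of 0.1 and dotted lines mark 0.5 in either direction. klf4, at 0.33, is the highest estimate of the 32 genes and klf9, at -1.51, the only estimate beyond a dotted line.

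Of 7 listed corepressors that Klf proteins recruit, 5 were found in the count table by symbol, and ctbp1 and ctbp2l were not. None of the 5 was called with either tool over all time points. An unadjusted p under 0.05 was found for 3 of them, as for 9049 of all 23158 genes, and the same 3 passed the adjusted p, as did 36% of all genes. sin3aa, a Sin3 scaffold, was higher by 0.11 (adjusted p = 0.00251), while hdac1, the histone deacetylase, and sin3b were lower by 0.11 and 0.07 (adjusted p = 0.00166 and 0.0356). A list of 10 possible inducers of klf9 held nuclear receptor, Ahr, Nrf2 and Xbp1 genes, not each of which is known to induce it. Of these, none was called with either tool, and 3 had an unadjusted p under 0.05 and passed the adjusted p, no larger a share than over all genes. The highest was nr3c1, the glucocorticoid receptor, at 80.8 ± 4.64 CPM in klf9-/- and 72.6 ± 5.07 CPM in wildtype (SD, n = 12 each, log2 fold change 0.16, SE 0.02, adjusted p = 2.28e-05). ahr2 and thrb were also higher, by 0.08 and 0.09 (adjusted p = 0.0175 and 0.0495), and the lowest was nfe2l2b, an Nrf2 gene, at -0.08 (adjusted p = 0.556).

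Of 3 genes reported as Klf9 targets, none was called with either tool over all time points. An unadjusted p under 0.05 was found for 2 of them, which also passed the adjusted p, as did 36% of all genes. dbpb, a PAR bZIP clock output gene, was higher by 0.26 (SE 0.05, adjusted p = 0.000177) and per1a, a clock repressor, by 0.25 (SE 0.07, adjusted p = 0.0122). fkbp5, a chaperone gene induced by glucocorticoids, differed by 0.19 (adjusted p = 0.506). At single time points 2 of the 3 genes passed the adjusted p at ZT-3 (8.83% of all genes), 2 at ZT0 (13.6%) and 0 at ZT+2.5 (6.69%). DESeq2 called 0 of the 3 by the interaction of genotype and time.

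The genes whose pattern was most like klf9 were sought among 19649 genes by Pearson's correlation of log2 CPM, as a description. Over the 24 samples, which share the genotype difference, the nearest was si:dkey-201c13.2 (r = 0.97), followed by C5H9orf85 (0.91), dusp11 (0.90), usp8 (0.89) and rps6kb1b (0.88). si:dkey-201c13.2 bears the clone name that RefSeq lists as a synonym of klf9 apart from its last digit. Its level over all time points fell by 1.17 in klf9-/- (SE 0.16, adjusted p = 1.16e-05), and whether it shares reads with klf9 was not tested. C5H9orf85 and dusp11, an RNA phosphatase gene, were also called lower, by 0.62 and 0.52 (adjusted p = 1.50e-09 and 2.19e-08).

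Over the 12 wildtype samples alone, where time of day and PC1 are what the points share, the nearest were tent5c (r = 0.96), si:dkey-201c13.2 (0.96), pik3r3a (0.94), errfi1a (0.93) and svilb (0.92). tent5c encodes a poly(A) polymerase, pik3r3a a regulatory subunit of PI 3-kinase and errfi1a a feedback inhibitor of EGF receptor signaling. None of tent5c, pik3r3a, errfi1a and svilb passed the genotype test over all time points (adjusted p = 0.421 to 0.831). Of the 9 relatives, klf3 was the most like klf9 in wildtype (r = 0.90), and klf2b the least (r = -0.42). After centring on group means, which removes genotype and time, klf9 still went with klf3 (r = 0.84) and klf15 (r = 0.82) over the 24 samples. In order, klf9, klf3 and klf15 followed PC1 in the same direction (r = -0.57, -0.74 and -0.82). The median size of this r over all genes was 0.51, so the value of klf9 was near that of a typical gene. Those of klf3 and klf15 lay beyond 74.1% and 83.2% of genes by size. The part of PC1 in these correlations with klf9 was not tested.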

How the data were processed

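RNA of 24 pools was sequenced as single-end reads. The authors trimmed the reads with Trim Galore (0.6.5) and, with STAR (2.7.5c) and RSEM (1.3.3), deposited expected counts per gene without normalization, summed over identifiers that share a symbol; 18% of values were not whole. They also deposited rlog values, a regularized log2 scale from DESeq2 (1.30.1), and tables of their own fold changes and p-values, which were not used. Whether counting used strand is not given in the sources used here.

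Counts were rounded, filtered with filterByExpr by group (23158 genes over all samples) and scaled by TMM (factors 0.925 to 1.074). R 4.3.3 with edgeR 4.0.16 (quasi-likelihood, robust) fitted genotype separately at ZT-3, ZT0 and ZT+2.5 (8 samples each), then genotype plus time in 24 samples, and a model of 6 group means for time changes and the interaction. The covariate was PC1 of the deposited rlog values after Z-transformation. Adjustment was by Benjamini-Hochberg, over all genes tested. Alternatives were no PC1, PC1 of the 8 samples, DESeq2 1.42.0, RLE scaling, no filter, a replicate block, no fold threshold, rlog for correlations and leaving out each pool. The scripts were tested on simulated counts without a PC1 or replicate effect, which checks the code and not the error rates in these data.

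Each pool came from a dish of its own. Replicate pairs differed by 7.37 to 91.1 times counting noise (36 pairs). Deviations of same-numbered pools correlated in every pair at ZT+2.5 (0.25 to 0.47), but not at ZT-3 (-0.35 to 0.00) or ZT0 (-0.35 to 0.02). Between groups of different time points they reached 0.41 in some pairs and -0.44 in others. The number is thus not shown to be a pairing, and the block is given as an alternative only.

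The 10 genes and all lists were chosen with earlier results of these data known. Named are the 10 genes, list genes called over all time points or otherwise the highest and lowest, and the 5 genes most correlated with klf9. Also named, after their values were seen, are list genes in counts of 5 or fewer and the neighbours of klf9. Gene order and the synonym are from RefSeq (GRCz12tu). Levels per transcript length and sequences were not used here.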

Additional observations from a re-analysis of the deposited data

Results flagged for a closer look

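Among 60 sets of 4 pools (10 genes in 6 groups), 2 held a pool far from the other 3 by Dixon's test at the 95% level, which chance does in about 1 of 20 sets. Both lay in wildtype replicate 4 of ZT0. There klf11b was at 9.59 CPM, against 11.4 to 11.5 CPM in the other 3 pools, and klf7b was at 79.2 CPM, against 68.8 to 70.6 CPM. No difference of the genotype effect between time points passed the adjusted threshold in edgeR for any of the 10 genes. With 1 pool left out, klf11b and klf7b passed the genotype test at ZT0 in 0 of 8 fits each. Without wildtype replicate 4 of ZT0, the log2 fold change of klf11a, which was not flagged, was -0.25 there, with an adjusted p of 0.0916.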

How the results depend on the processing

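The fall of klf9 at ZT-3, ZT0 and over all time points, and the overall differences of klf15, klf11a and klf11b, kept direction and threshold under every alternative run. At ZT+2.5 klf9 passed with DESeq2 (-1.42) and ranged from -1.57 to -0.94 with 1 pool left out, with 0 to 1 of the 10 genes called and 1 with DESeq2. Without PC1, klf9 between ZT0 and ZT+2.5 in klf9-/- was -0.79 (0 genes called) and between ZT-3 and ZT+2.5 in wildtype -0.69 (0 called), and 2 genes were called between ZT0 and ZT+2.5 in wildtype, as with RLE scaling (2) and DESeq2 (2). DESeq2 called 1 gene by the interaction. The causes were not tested.

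With 1 pool left out, klf9 ranged from -1.14 to -0.67 (0 to 2 genes called) between ZT0 and ZT+2.5 and from -0.80 to -0.34 (0 to 1) between ZT-3 and ZT+2.5 in klf9-/-. In wildtype it ranged from -1.17 to -0.63 (0 to 3 called) between ZT-3 and ZT+2.5, and 1 to 2 genes were called between ZT0 and ZT+2.5. Without the fold threshold, 3, 1 and 4 genes passed at ZT-3, at ZT+2.5 and over all time points. For the 3 time steps in order (ZT-3 to ZT0, ZT0 to ZT+2.5, ZT-3 to ZT+2.5), these were 3, 4 and 4 genes in klf9-/- and 2, 3 and 4 in wildtype.

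The replicate block let klf15 pass at ZT0 (0.15, adjusted p = 0.0819), klf2a at ZT+2.5 (0.36) and klf13 over all time points (0.14, adjusted p = 0.0555), and klf11b between ZT-3 and ZT+2.5 in klf9-/- no longer passed (0.13, adjusted p = 0.106). It changed no other call of the 10 genes. Across all 60 same-numbered pairs of groups the correlation was -0.44 to 0.47. Expected counts of klf9 and its 9 relatives were 211 or more in every sample, and klf4 had as few as 42. Over all genes, counts of calls moved by more than 1.5 times without PC1, to 347 from 661 at ZT-3, 473 from 772 at ZT0, 144 from 514 at ZT+2.5 and 1 from 4 for the interaction, where DESeq2 called 35.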

Other observations

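Genes near klf9 in RefSeq order were looked at after the values of its own locus had been seen. Among the 10 tested genes on each side, 6 of 20 (30%) were called over all time points, with 9 of 50 (18%) among the 25 on each side, 25 of 200 (12.5%) among the 100 on each side and 56 of 1037 (5.40%) on the whole chromosome, against 4.91% of all genes. The 6 were anxa1a (fell by 1.03 on the log2 scale), abhd17b (fell by 0.51), cyp1d1 (0.62), tmc2b (1.79), ela3l (1.19) and bco2l (0.73), so both directions occurred. The immediate neighbours were trpm3 at -0.03 (adjusted p = 0.747) and fam219ab at -0.18 (adjusted p = 7.59e-05). None of the other 9 klf genes lies on the chromosome of klf9.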
